A study of Mus musculus with 10 samples.

Results

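p53, encoded by Trp53 in the mouse, and 30 genes listed as its targets were followed through RNA-seq of mouse prostate cancer organoids. Whether p53 activates each of them in these cells was not tested. The list of 31 genes was matched by symbol, written in capitals as deposited, and all 31 were present among the 24043 and 24016 gene rows used in the 2 deposited tables. All 31 also passed the filter of a mean of 1 RPKM, a read density scaled to transcript length and library size, in both tables. The organoids, 3-dimensional cultures of epithelium, came from the dorsal-lateral prostate of C57BL/6 mice at 8 weeks of age. Per the labels, the mice carried cMYC overexpression, floxed EZH2 alleles and PSA-CreERT2, a recombinase under a prostate promoter that Tamoxifen switches on, and every culture held 10 nM of the synthetic androgen R1881. In the chemical experiment, 3 libraries given 1 µM DZNep, an inhibitor of S-adenosylhomocysteine hydrolase used here to inhibit EZH2, were set against 3 given DMSO. In the genetic experiment, 2 libraries given 1 µM Tamoxifen were set against 2 given EtOH, and RNA was taken at 3 days in both. All groups carried the same alleles, and no group without Cre or without the floxed alleles was analysed here, so Tamoxifen and recombination cannot be told apart. The origin of the replicates (culture or animal) is not stated in the labels, and each p-value therefore reflects library-to-library spread alone, possibly technical.

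p53 is a transcription factor held low by constant breakdown and stabilised by DNA damage, oncogene activity and other stress. It then binds a response element of paired decamers near its targets and raises genes that stop the cell cycle, start cell death, repair DNA or limit metabolism. Several targets feed back, chief among them MDM2, the ubiquitin ligase that marks p53 for breakdown. Control of p53 is largely at the level of the protein, which RNA-seq does not measure. MYC overexpression is a classical trigger of the pathway, and p53 loss is frequent in advanced prostate cancer.

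EZH2, the intended target, averaged 23.8 ± 1.19 RPKM in DZNep and 29.1 ± 1.78 RPKM in DMSO (SD, n = 3 each; limma adjusted p = 0.0142, exact permutation p = 0.1, the smallest possible). It averaged 32.6 ± 0.822 RPKM in Tamoxifen and 31.0 ± 4.25 RPKM in EtOH (SD, n = 2 each; limma adjusted p = 0.635, exact permutation p = 1), and a value for the whole gene does not check the deletion. Libraries listed 15021 to 15404 genes above 0, and their absolute depth is unknown from RPKM. The epithelial label held: KRT5 averaged 2061 RPKM and KRT8 156 RPKM in DMSO, while COL3A1, CDH5 and CHGA were listed at 0 in every library. In bulk samples, fewer cells of a type and less RNA per cell cannot be told apart.

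Promoter sequence was available for 24 of the 31 genes, as 32 RefSeq windows of 250 bases before to 50 after a start site, on build GRCm38.p6. Expression values came from build mm9, so genes were matched by symbol only. The p53 response element was searched on both strands as 2 adjacent decamers with at most 3 mismatches over 20 bases and with the C and G of each core kept. It was found in windows of 7 of the 24 genes, or 25.0% of the 32 windows, and in 1.38% of all 32851 windows of the table. The 25.0% counts 1 AEN element in both of its overlapping windows. With at most 1 mismatch a response element was found for CDKN1A, CCNG1 and RPS27L, against 0.067% of all windows. These sequences are shown because they carry the binding pattern that defines the pathway, each as the matched element in capitals with its neighbouring bases:
CDKN1A (chr17:29090898-29090977, plus strand, element at -51 from a start site, 1 mismatch): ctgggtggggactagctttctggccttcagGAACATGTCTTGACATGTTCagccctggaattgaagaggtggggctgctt
CCNG1 (chr11:40755432-40755511, minus strand, element at -195, 1 mismatch): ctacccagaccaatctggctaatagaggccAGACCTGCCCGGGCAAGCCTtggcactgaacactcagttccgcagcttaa
RPS27L (chr9:66946266-66946345, plus strand, element at -117, 1 mismatch): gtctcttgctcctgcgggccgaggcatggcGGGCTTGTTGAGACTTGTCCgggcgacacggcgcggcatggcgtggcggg
AEN (chr7:78895907-78895986, plus strand, element at -121, 3 mismatches): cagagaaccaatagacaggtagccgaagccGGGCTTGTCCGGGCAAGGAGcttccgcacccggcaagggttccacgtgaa
BBC3 (chr7:16309456-16309535, plus strand, element at -97, 3 mismatches): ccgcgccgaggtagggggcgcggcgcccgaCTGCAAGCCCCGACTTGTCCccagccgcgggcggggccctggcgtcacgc
SESN1 (chr10:41887236-41887315, plus strand, element at -173, 3 mismatches): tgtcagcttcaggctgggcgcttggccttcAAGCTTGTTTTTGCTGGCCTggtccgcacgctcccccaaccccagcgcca
TRP53 (chr11:69580254-69580333, plus strand, element at -75, 3 mismatches): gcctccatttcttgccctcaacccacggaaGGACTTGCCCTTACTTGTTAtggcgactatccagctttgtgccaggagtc

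A single exact decamer was present in 12 of the 32 windows (37.5%), and in 8.36% of all windows. The AEN decamer likewise counts in both of its overlapping windows. Exact decamers were found for 6 of the genes above, all but BBC3, and for BAX, EI24, MDM2, PPM1D and POLK. A match describes the letters of these windows and not binding in the organoids, and elements farther from the start site or in introns lie outside them. Each offset above counts from the start site of 1 window. AEN, BBC3, CDKN1A, RPS27L and SESN1 had more than 1 window. The AEN element lay at an offset of 10 from its other start site. The other windows of BBC3, CDKN1A, RPS27L and SESN1 held no such element.

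On this list, DZNep raised p53 target RNAs across several roles while the RNA of p53 itself did not pass the test. The list was chosen with earlier results of these data known. A separate list of further p53 targets, described below, had a median log2 change of 0.02. Of the 31 genes, 15 rose and 0 fell (limma, Benjamini-Hochberg adjusted p under 0.05). Of the 11143 genes tested 27.7% changed, 16.6% up and 11.1% down, and these shares also stand beside the counts by role below. The unadjusted p was under 0.05 for 22 genes higher and 1 lower, and for 41.7% of all genes. The median log2 change of the 31 genes was 0.18, beside 0.01 over all genes tested, and 28 of 31 changes were positive, beside 53.1% of all genes. In 23 of 31 genes every DZNep library lay above every DMSO library, against 26.1% of all genes tested. The reverse held for 1 gene, TRIAP1, against 19.4% of all genes. The changes were small, from -0.13 to 0.63, on the log2(RPKM + 1) scale used for every fold change here, which understates those of weakly expressed genes. The count that rose was 8 without DZNep replicate 2 and 9 without DMSO replicate 2, where 9.46% and 8.81% of all genes rose. TRIAP1 fell after quantile normalization.

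**Figure D1:**
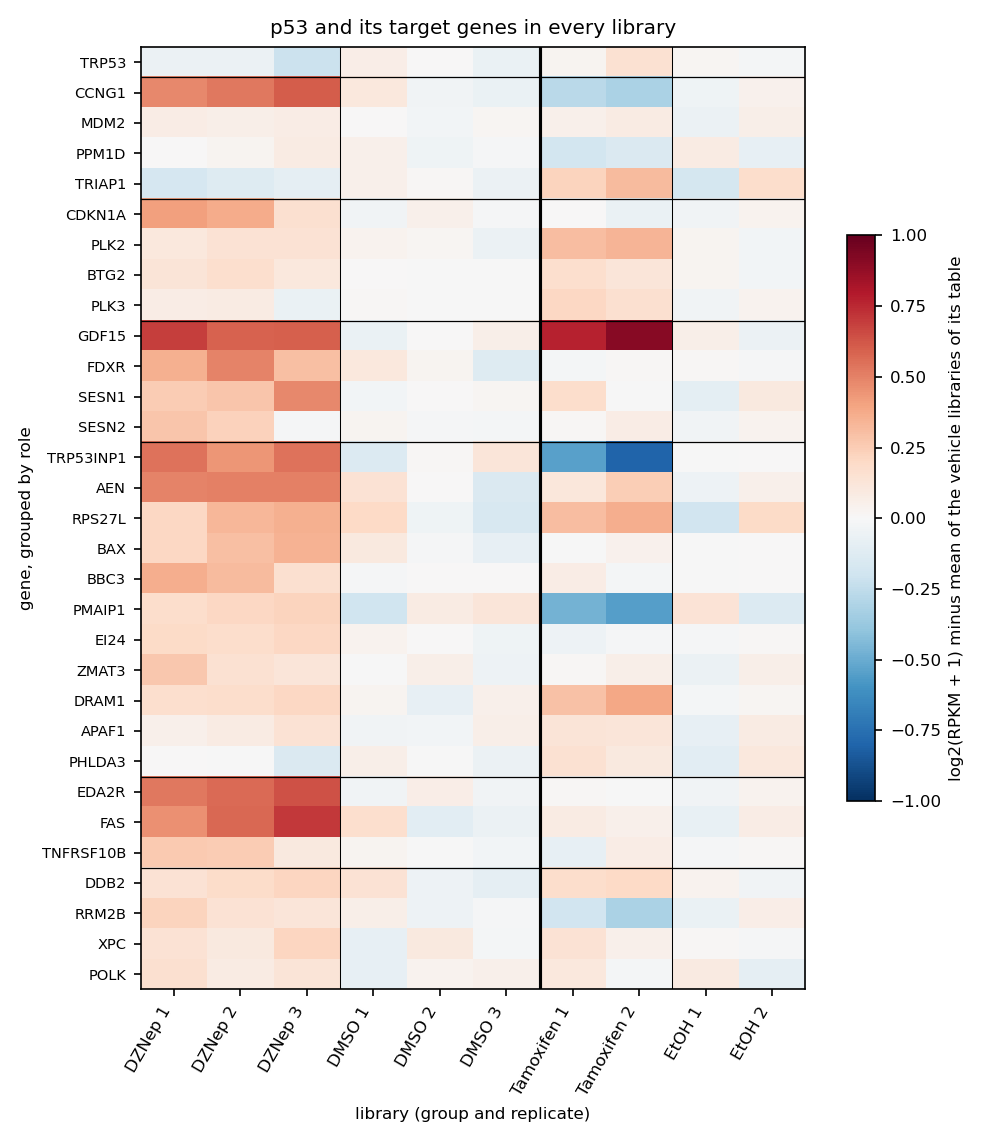
Each row is 1 of the 31 genes, grouped by role, and each column a library; colour gives log2(RPKM + 1) minus the mean of the vehicle libraries of the same table. The 3 DZNep columns are mostly red, with 26 to 29 genes above the DMSO mean, whereas the Tamoxifen columns mix red (GDF15) and blue (TRP53INP1, PMAIP1).

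Position on the list differed little among DZNep libraries. The median gene stood 0.205, 0.182 and 0.161 above the DMSO mean in DZNep 1, 2 and 3 on the log2 scale, and 0.028, 0.000 and -0.019 from it in DMSO 1, 2 and 3. Over all genes tested the same median was 0.015 to 0.020 in DZNep libraries and -0.017 to 0.011 in DMSO libraries.

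TRP53 stood at 85.1, 85.3 and 76.5 RPKM in DZNep, against 92.9, 89.1 and 85.0 RPKM in DMSO. The groups overlapped, and the log2 change was -0.11 (SE 0.0613; limma adjusted p = 0.204). With a DMSO mean of 89.0 RPKM it exceeded 93.0% of the genes tested. Trp53 has a pseudogene and overlaps WRAP53 on the other strand, and no source used here says whether reads were counted by strand, so its level is uncertain to that extent.

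Among the genes grouped as feedback, CCNG1 rose and the other 3 did not pass. CCNG1, encoding cyclin G1, which recruits phosphatase 2A to MDM2, stood at 65.2, 67.3 and 71.3 RPKM in DZNep, against 50.1, 45.3 and 44.3 RPKM in DMSO. All DZNep libraries lay above all DMSO libraries, with a log2 difference of 0.54 (SE 0.0619; adjusted p = 0.00099 by limma). MDM2 stood at 28.1, 27.7 and 28.0 RPKM in DZNep, against 26.6, 26.1 and 27.0 RPKM in DMSO, a difference of 0.07 without overlap that missed the threshold (adjusted p = 0.252). PPM1D, the phosphatase WIP1 that damps p53 signalling, averaged 8.42 ± 0.258 RPKM in DZNep and 8.18 ± 0.297 RPKM in DMSO (SD, n = 3 each; limma adjusted p = 0.598). TRIAP1, a p53-induced inhibitor of apoptosis, averaged 17.7 ± 0.503 RPKM in DZNep and 19.4 ± 0.753 RPKM in DMSO (limma adjusted p = 0.0876).

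Of 4 growth arrest genes only CDKN1A passed. CDKN1A, encoding the cyclin-dependent kinase inhibitor p21, stood at 84.2, 82.1 and 70.6 RPKM in DZNep, against 61.7, 65.5 and 62.5 RPKM in DMSO. The third DZNep library was the lowest of its group and still above all DMSO libraries, and the log2 change was 0.31 (SE 0.0716; limma adjusted p = 0.0164). Without DZNep replicate 2 its adjusted p was 0.0666, within a range of 0.00524 to 0.0666 over the 15 alternatives. BTG2, an antiproliferative regulator of RNA decay, averaged 61.5 ± 1.40 RPKM in DZNep and 56.0 ± 0.274 RPKM in DMSO (limma adjusted p = 0.0545). The Polo-like kinases PLK2 and PLK3 had log2 changes of 0.13 and 0.03 (adjusted p = 0.0758 and 0.699).

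Stress and metabolic targets rose in 3 of 4 cases. GDF15, a stress cytokine, stood at 15.6, 14.4 and 14.5 RPKM in DZNep, against 8.79, 9.31 and 9.71 RPKM in DMSO. Its change of 0.63 (SE 0.0542; limma adjusted p = 2.81e-04) lay above that of 97.9% of the genes tested. FDXR, the mitochondrial ferredoxin reductase, stood at 5.04, 5.68 and 4.83 RPKM in DZNep, against 4.08, 3.83 and 3.32 RPKM in DMSO (0.38, SE 0.0799; adjusted p = 0.0115). SESN1, a sestrin that restrains mTORC1, stood at 8.55, 8.69 and 10.2 RPKM in DZNep, against 6.86, 7.004 and 7.11 RPKM in DMSO. Its groups were also separate (0.34, SE 0.0674; adjusted p = 0.00965). The other sestrin, SESN2, stood at 4.51, 4.33 and 3.52 RPKM in DZNep, against 3.63, 3.52 and 3.50 RPKM in DMSO, with DZNep 3 inside the DMSO range (0.17; adjusted p = 0.157).

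The 3 TNF receptor family genes rose. EDA2R, a TNF receptor family member that binds ectodysplasin A2, stood at 5.09, 5.26 and 5.56 RPKM in DZNep, against 3.12, 3.43 and 3.11 RPKM in DMSO (0.58, SE 0.0581; adjusted p = 5.60e-04). FAS, the receptor of FAS ligand, stood at 5.02, 5.53 and 6.17 RPKM in DZNep, against 3.94, 3.07 and 3.20 RPKM in DMSO (0.58, SE 0.0935; adjusted p = 0.00431). Both were among the lowest of the 31 in DMSO, at ranks 31 and 30, and both separated completely. TNFRSF10B, the mouse TRAIL receptor, stood at 9.01, 8.98 and 7.96 RPKM in DZNep, against 7.53, 7.33 and 7.21 RPKM in DMSO (0.21, SE 0.0577; adjusted p = 0.0330). That call was lost under 6 alternatives, among them without DZNep replicate 1 or 2 or DMSO replicate 2 or 3, and its adjusted p ran from 0.0154 to 0.118 over the alternatives.

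**Figure D2:**
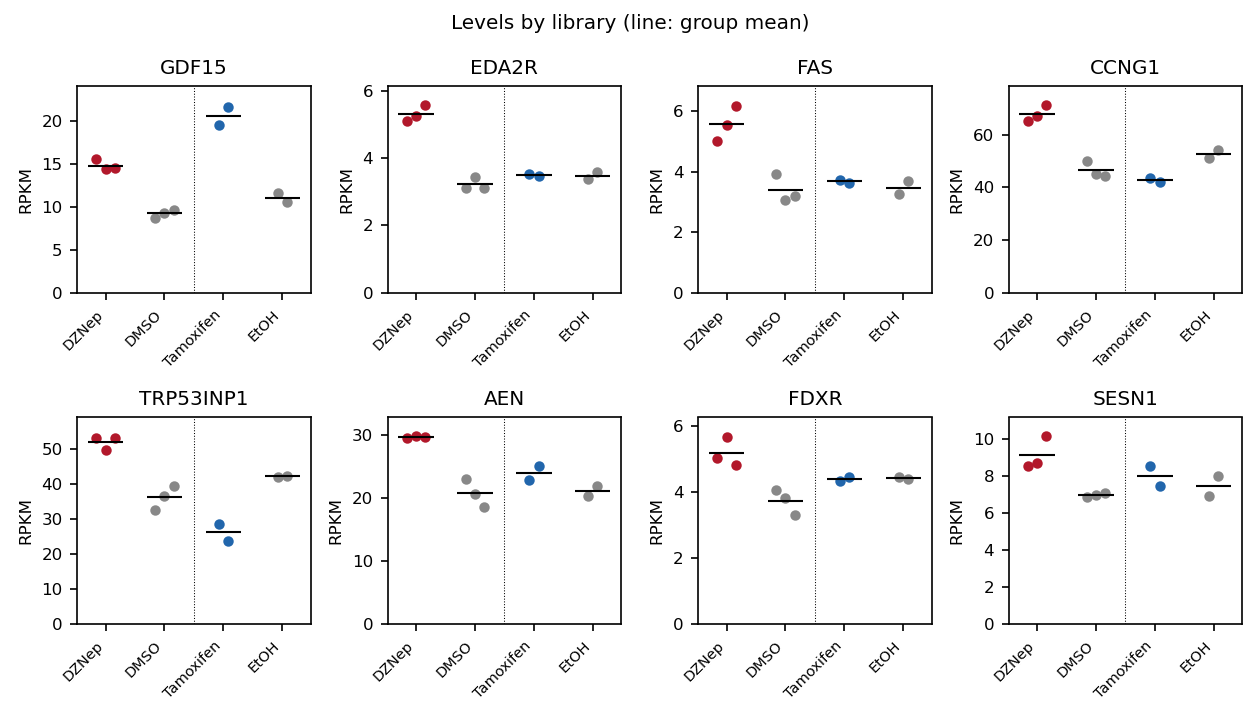
RPKM per library (points, left to right by replicate number) and group mean (line) for the 8 genes of largest called rise with DZNep on the log2(RPKM + 1) scale, with the chemical table left and the genetic table right of each dotted line. Every DZNep point lies above every DMSO point in all 8 panels, while only GDF15 among them is called higher with Tamoxifen and TRP53INP1 is called lower.

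Genes of mitochondrial death, autophagy and related responses rose in 7 of 11 cases. TRP53INP1, a nuclear and autophagy protein that promotes p53 activity, stood at 53.2, 49.7 and 53.3 RPKM in DZNep, against 32.8, 36.7 and 39.6 RPKM in DMSO (0.51, SE 0.0719; limma adjusted p = 0.00238). AEN, an exonuclease induced in apoptosis, stood at 29.6, 29.8 and 29.7 RPKM in DZNep, against 23.0, 20.7 and 18.6 RPKM in DMSO (0.50, SE 0.0729; adjusted p = 0.00271). The DZNep libraries of AEN differed far less among themselves than those of DMSO did. BAX, the pore-forming protein of the outer mitochondrial membrane, stood at 133, 142 and 146 RPKM in DZNep, against 123, 114 and 108 RPKM in DMSO (0.28, SE 0.0632; adjusted p = 0.0148). BBC3, the BH3-only protein PUMA, stood at 10.2, 9.89 and 8.79 RPKM in DZNep, against 7.69, 7.80 and 7.79 RPKM in DMSO (0.28, SE 0.0602; adjusted p = 0.0132). Both separated the groups, and both calls were lost without DZNep replicate 2 (adjusted p = 0.0588 for BAX and 0.0548 for BBC3) or DMSO replicate 2 (0.0623 and 0.0517). Over all alternatives the adjusted p ran from 0.00466 to 0.0687 for BAX and from 0.00518 to 0.0548 for BBC3.

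EI24, a protein of the endoplasmic reticulum, stood at 78.5, 77.4 and 79.5 RPKM in DZNep, against 70.3, 68.7 and 66.7 RPKM in DMSO (0.19, SE 0.0449; limma adjusted p = 0.0175). RPS27L, a ribosomal protein relative, stood at 276, 302 and 306 RPKM in DZNep, against 274, 233 and 215 RPKM in DMSO (0.30, SE 0.0922; adjusted p = 0.0464). DMSO 1 nearly reached the lowest DZNep library, and reads of RPS27L may be shared with its close relative RPS27. DRAM1, a lysosomal regulator of autophagy, stood at 8.15, 8.19 and 8.41 RPKM in DZNep, against 7.31, 6.72 and 7.45 RPKM in DMSO (0.18, SE 0.0520; adjusted p = 0.0348). The call of EI24 was lost under 4, that of RPS27L under 8 and that of DRAM1 under 9 of the 15 alternatives. Leaving out DZNep replicate 2, DMSO replicate 2 or DMSO replicate 3 lost all 3, as did DZNep replicate 3 for RPS27L, and DZNep replicate 1 or 3 for DRAM1. The highest adjusted p was 0.0839 for EI24, 0.141 for RPS27L and 0.143 for DRAM1, and the lowest 0.00642, 0.00621 and 0.0214.

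The other 4 of these genes did not pass. PMAIP1, the BH3-only protein NOXA, stood at 5.94, 6.09 and 6.14 RPKM in DZNep, against 4.33, 5.48 and 5.68 RPKM in DMSO (0.20; limma adjusted p = 0.115). ZMAT3, an RNA-binding zinc finger protein, had a log2 change of 0.18 (adjusted p = 0.0517), APAF1, the scaffold of the apoptosome, of 0.09 (0.237), and PHLDA3, an inhibitor of AKT, of -0.05 (0.570). PHLDA3 was abundant, at 76.6 ± 4.49 RPKM in DZNep and 79.1 ± 3.16 RPKM in DMSO, and its groups overlapped.

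None of the 4 DNA repair and nucleotide supply genes passed, although all 4 changes were positive and 3 had an unadjusted p under 0.05. DDB2 and XPC, which recognise lesions for nucleotide excision repair, had log2 changes of 0.18 (limma adjusted p = 0.0774) and 0.15 (0.101). RRM2B, a p53-inducible subunit of ribonucleotide reductase, stood at 4.23, 3.97 and 3.89 RPKM in DZNep, against 3.69, 3.35 and 3.45 RPKM in DMSO (0.16; adjusted p = 0.0704). POLK, a translesion polymerase, had a change of 0.12 (adjusted p = 0.123).

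The promoter match and the call were set side by side as a description. A response element with at most 3 mismatches was found for 6 of the 13 genes that rose and had a window, and for 1 of the 11 that did not pass, TRP53. With at most 1 mismatch the counts were 3 and 0. The 13 genes had 20 windows and the 11 had 12, so more windows were searched per rising gene. By window, at most 3 mismatches were met in 35.0% and 8.33%. The 35.0% counts 1 AEN element in both of its overlapping windows, so it does not correct for the number of windows. GDF15, EDA2R, FAS, FDXR and DRAM1 rose with neither an element nor an exact decamer in their windows.

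**Figure D3:**
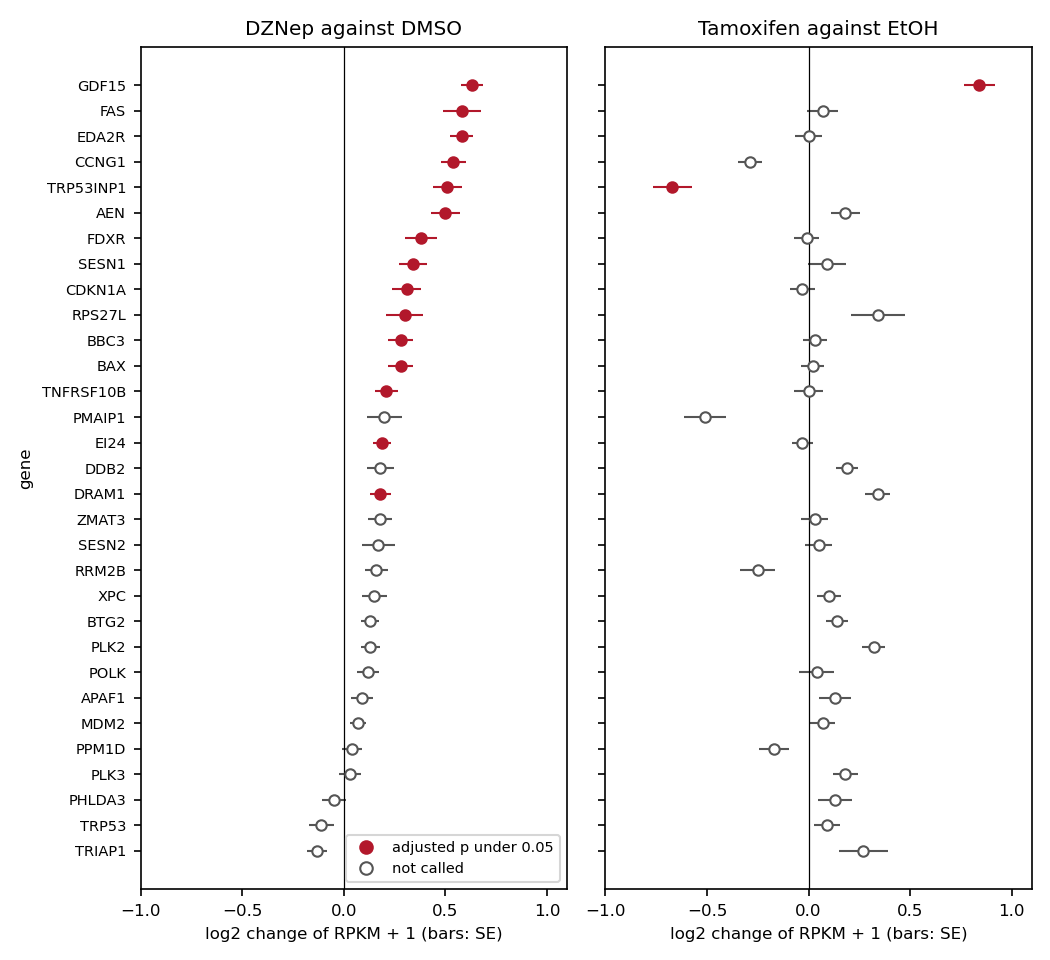
Log2 change of RPKM + 1 with its standard error for each of the 31 genes, DZNep against DMSO on the left and Tamoxifen against EtOH on the right, in the order of the DZNep change. Filled points passed an adjusted p of 0.05: 15 on the left, all above 0, and 2 on the right, 1 on each side of 0.

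Other genes of the pathway moved less uniformly. Of 28 upstream regulators (kinases, p53 relatives, cofactors and ribosomal proteins that bind MDM2) 27 were tested. After DZNep 1 rose and 1 fell, with a median of -0.01, where 16.6% of all genes tested rose and 11.1% fell. ATM, the kinase that signals double-strand breaks, averaged 4.77 ± 0.454 RPKM in DZNep and 3.83 ± 0.0894 RPKM in DMSO (log2 change 0.26, SE 0.0676; limma adjusted p = 0.0265). RPL5, a ribosomal protein that restrains MDM2, averaged 473 ± 20.6 RPKM in DZNep and 609 ± 42.6 RPKM in DMSO (-0.36, SE 0.0673; adjusted p = 0.00768), and its reads may be shared with pseudogenes. The number called on this list was 1 without DZNep replicate 1 or 3 or DMSO replicate 1 or 2. Of all genes tested 22.9%, 21.2%, 30.2% and 13.7% were then called, beside 27.7% with every library.

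A list of 40 further p53 targets, which does not overlap the 31, showed no shift of its median (0.02). Of 30 tested, 8 rose and 2 fell, where 16.6% of all genes tested rose and 11.1% fell. THBS1, an antiangiogenic matrix protein, averaged 119 ± 4.48 RPKM in DZNep and 78.4 ± 7.22 RPKM in DMSO (0.60, SE 0.0729; limma adjusted p = 0.00126). SLC19A2, a thiamine transporter, rose by 0.52, the antiproliferative BTG1 by 0.39 and the epoxide hydrolase EPHX1 by 0.30. TRP53I11 fell to 16.8 ± 1.89 RPKM in DZNep, against 25.0 ± 0.306 RPKM in DMSO (-0.55, SE 0.0758; adjusted p = 0.00214), and the growth factor TGFA had a change of -0.45 (adjusted p = 0.00355).

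Genes silenced by the DREAM complex, the repressor that p21 engages when p53 is active, formed a list of 30. After DZNep 13 fell and 1 rose, where 11.1% of all genes tested fell and 16.6% rose. The list's median was -0.19, and CHEK1 stands on this list and on that of regulators. MYBL2, a cell cycle transcription factor, averaged 10.7 ± 0.170 RPKM in DZNep and 15.1 ± 0.928 RPKM in DMSO (-0.47, SE 0.0543; limma adjusted p = 0.00101). FOXM1, which drives mitotic genes, averaged 10.8 ± 0.614 RPKM in DZNep and 15.1 ± 0.594 RPKM in DMSO (-0.46, SE 0.0558; adjusted p = 0.00126). E2F1, TOP2A, CCNA2 and CDC25C had changes of -0.42, -0.41, -0.37 and -0.29. MKI67, a marker of cycling cells named after its value was seen, went the other way (0.18, adjusted p = 0.0334). The number called was 8 without DZNep replicate 2 and 7 without DMSO replicate 2. Of all genes tested 15.8% and 13.7% were then called, beside 27.7% with every library.

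**Figure D4:**
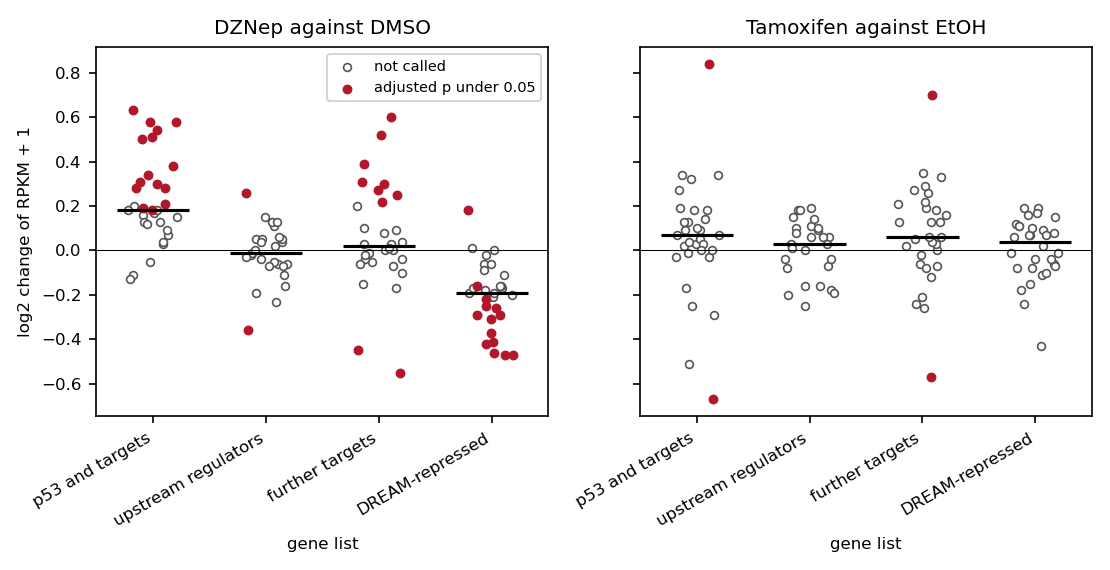
Log2 change of RPKM + 1 of every tested gene in 4 lists, DZNep against DMSO on the left and Tamoxifen against EtOH on the right, with the list median as a line and filled points for adjusted p under 0.05. On the left the p53 list has a median of 0.18 and the DREAM list one of -0.19, and on the right all 4 medians lie between 0.03 and 0.07.

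Epithelial and other markers moved in the same comparison. The summed level of 4 basal markers was 6664 to 6937 RPKM in DZNep and 4898 to 5201 RPKM in DMSO, nearly all of it keratin. KRT14, KRT5 and KRT15 rose by 0.85, 0.42 and 0.24 on the log2 scale (limma adjusted p = 7.18e-05, 0.0015 and 0.0277). TRP63, the transcription factor of basal cells, averaged 46.6 RPKM in DZNep and 48.2 RPKM in DMSO (-0.04; adjusted p = 0.655). The 6 luminal markers summed to 1203 to 1303 RPKM in DZNep and 1165 to 1212 RPKM in DMSO. The 10 fibroblast and smooth muscle markers summed to 8.32 to 9.50 RPKM in DZNep and 3.05 to 4.32 RPKM in DMSO, almost wholly from DCN and ACTA2, with COL1A2, COL3A1 and DES at 0. The immune list, of which 8 of 9 genes were in the table, summed to 59.7 to 61.4 RPKM in DZNep and 43.9 to 48.6 RPKM in DMSO. That sum was CD14 and CD68, as PTPRC, the marker of all leukocytes, reached at most 0.00494 RPKM and EMR1 was at 0. The part of basal marker levels in the p53 target result was not tested.

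Tamoxifen gave no shared shift of the 31 genes. GDF15 rose and TRP53INP1 fell, 1 gene each, where 2.07% of the 11123 genes tested changed, 0.692% up and 1.38% down. The median log2 change was 0.07, beside 0.04 over all genes tested, and 22 of 31 changes were positive, beside 59.9% of all genes. Tamoxifen libraries lay wholly above EtOH for 12 genes and wholly below for 6, against 36.6% and 23.2% of all genes, shares near the background. With 2 libraries a group, 11 of the 31 had an unadjusted p under 0.05, against 25.5% of all genes.

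GDF15 stood at 19.5 and 21.7 RPKM in Tamoxifen, against 11.6 and 10.6 RPKM in EtOH. Its log2 change of 0.84 (SE 0.0766; limma adjusted p = 0.0263) lay above that of 99.3% of the genes tested. TRP53INP1 stood at 28.8 and 23.9 RPKM in Tamoxifen, against 42.2 and 42.5 RPKM in EtOH (-0.67, SE 0.0943; adjusted p = 0.0413). Both separated the groups, and both calls were lost without Tamoxifen replicate 1 or 2, that of TRP53INP1 also without EtOH replicate 1. Over the 13 alternatives the adjusted p ran from 2.71e-04 to 0.117 for GDF15 and from 0.00288 to 0.188 for TRP53INP1.

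The remaining genes did not pass with Tamoxifen. TRP53 stood at 90.1 and 98.1 RPKM in Tamoxifen, against 89.6 and 87.1 RPKM in EtOH (0.09; limma adjusted p = 0.420), CDKN1A at 79.4 and 75.4 RPKM in Tamoxifen, against 77.2 and 80.8 RPKM in EtOH (-0.03; 0.774). The TRP53 groups were separate and those of CDKN1A overlapped, as did MDM2 at 27.0 and 27.4 RPKM in Tamoxifen, against 24.9 and 27.0 RPKM in EtOH (0.07; adjusted p = 0.517). PMAIP1 stood at 3.70 and 3.45 RPKM in Tamoxifen, against 6.16 and 4.95 RPKM in EtOH (-0.51; adjusted p = 0.0728). CCNG1 stood at 43.6 and 42.2 RPKM in Tamoxifen, against 51.1 and 54.3 RPKM in EtOH (-0.29; adjusted p = 0.0730). PMAIP1 and CCNG1 were separate and lower in Tamoxifen without passing, and each passed under 4 alternatives. PLK2 and DRAM1 were separate and higher (0.32, adjusted p = 0.0549, and 0.34, adjusted p = 0.0616), and they passed under 4 and 3 alternatives. The 3 TNF receptor family genes had changes of 0.07 or less. EDA2R stood at 3.51 and 3.46 RPKM in Tamoxifen, against 3.37 and 3.57 RPKM in EtOH. EtOH libraries disagreed for RPS27L, at 248 and 325 RPKM, beside 352 and 366 RPKM in Tamoxifen (0.34; adjusted p = 0.194).

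Among the other lists, 7 of 27 upstream regulators and 4 of 30 DREAM genes had an unadjusted limma p under 0.05 with Tamoxifen. Of all genes tested 25.5% did. After adjustment 0 of 27 and 0 of 30 passed, against 2.07% of all genes. Each of those counts moved without EtOH replicate 2, as did the number of calls over all genes, in a fit left with 1 EtOH library. Of 30 further targets, LIF, a cytokine, rose (24.3 ± 2.03 RPKM in Tamoxifen and 14.6 ± 1.47 RPKM in EtOH; 0.70, adjusted p = 0.0381) and KLF4, an epithelial transcription factor, fell (48.1 ± 0.952 RPKM in Tamoxifen and 71.7 ± 0.0534 RPKM in EtOH; -0.57, adjusted p = 0.0263). The list's count moved without either Tamoxifen replicate or EtOH replicate 2, as did the number of calls over all genes. Basal markers summed to 4002 to 4117 RPKM in Tamoxifen and 5075 to 5470 RPKM in EtOH, and KRT14 fell by 0.49 on the log2 scale (adjusted p = 0.0424). KRT5, KRT15 and TRP63 had changes of -0.30, -0.41 and -0.20 that did not pass (adjusted p = 0.104, 0.0890 and 0.128), and the part of this in the values above was not tested.

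The 2 responses were then compared directly, as the DZNep change minus the Tamoxifen change in 1 limma fit of all 10 libraries. The tables may have been normalized apart, and only differences within a table entered. The DZNep response was higher for 9 of the 31 genes and lower for 0, where 19.9% of the 10994 genes tested differed, 10.7% higher and 9.2% lower. The unadjusted p was under 0.05 for 14 genes higher and 3 lower, and for 35.3% of all genes. The median difference was 0.15, beside -0.01 over all genes. TRP53INP1 differed most, by 1.18 (SE 0.125; adjusted p = 3.24e-04), rising with DZNep and falling with Tamoxifen. CCNG1 differed by 0.83 (SE 0.0910; adjusted p = 3.98e-04), PMAIP1 by 0.72 (SE 0.145; 0.00861) and EDA2R by 0.57 (SE 0.0855; 0.00192). These 4 kept their call under every alternative in which they were tested.

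FAS (0.51), RRM2B (0.41), FDXR (0.39), CDKN1A (0.34) and EI24 (0.23) also passed, with adjusted p between 0.0163 and 0.0432. Their calls were lost under 3 to 12 of the alternatives. The 9 became 5 without DZNep replicate 2 or DMSO replicate 2 or 3. Of all genes tested 7.83%, 7.20% and 8.46% were then higher, beside 10.7% with every library. The count of 9 also fell without Tamoxifen replicate 1 or 2 or EtOH replicate 2, in fits left with 1 library in a group. TRIAP1 differed by -0.39 with an adjusted p of 0.0502, and passed as lower in 5 alternatives (adjusted p from 0.00427 to 0.170 over all). GDF15, raised in both experiments, differed by -0.21 (SE 0.0942; adjusted p = 0.134), which does not show that the responses were alike. MDM2, the principal feedback gene, differed by 0.00 (adjusted p = 0.981) and BTG2 by -0.01 (0.927).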

How the data were processed

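RNA-seq values of 10 libraries were used: 3 DZNep, 3 DMSO, 2 Tamoxifen and 2 EtOH. The submitters' processing notes name bcl2fastq 2.18, STAR, Cufflinks and build mm9. The authors deposited log2 RPKM values in 2 tables with a floor of 0, read here as log2(RPKM + 1) and turned back into RPKM. No source used here says how strand or multiply aligned reads were handled. From the genetic table, 2 empty rows and 27 rows whose symbols had become dates were left out. RPKM holds no counts, so no count model was used and depth is unknown.

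Each experiment was tested alone by limma 3.58.1 in R 4.3.3 (mean trend, two-sided, 4 and 2 residual degrees of freedom). The test used log2(RPKM + 1) of all genes whose mean reached 1 RPKM in the table. Benjamini-Hochberg adjustment covered all genes tested, and calls needed an adjusted p below 0.05. The difference between experiments was fitted over all 10 libraries. EZH2 also had an exact two-sided permutation test. The procedure was tested on simulated data.

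The 31 genes and the 3 other lists were chosen with earlier results of these data known. Every library's value is given for TRP53 in both experiments and for called genes in the experiment that called them. Of the other lists at most 6 called genes of smallest p are named per list and experiment, besides MKI67. Alternatives changed 1 choice at a time: the pseudocount (0.1), the filter (none, or 5 RPKM), the scaling (quantile or trimmed mean), the variance model (untrended, robust, or shared by all libraries), a replicate block, or 1 library left out. Promoter windows came from RefSeq, build GRCm38.p6. Plots used matplotlib 3.10.9 and Python 3.11.15.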

Additional observations from a re-analysis of the deposited data

Results flagged for a closer look

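For 9 genes the response to DZNep differed from that to Tamoxifen by the test of the difference itself (limma, adjusted p under 0.05), given as the DZNep change minus the Tamoxifen change on the log2 scale. The differences were 1.18 for TRP53INP1, 0.83 for CCNG1, 0.72 for PMAIP1, 0.57 for EDA2R, 0.51 for FAS, 0.41 for RRM2B, 0.39 for FDXR, 0.34 for CDKN1A and 0.23 for EI24. TRP53INP1 was called in both experiments, in opposite directions. PMAIP1 and RRM2B were called in neither experiment alone, and their difference joins a positive change with DZNep and a negative one with Tamoxifen. The experiments differ in agent, vehicle and number of libraries, so these cannot be told apart in the difference.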

How the results depend on the processing

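Of the 15 genes that rose with DZNep, 8 passed under every alternative in which they were tested: CCNG1, GDF15, EDA2R, TRP53INP1, SESN1, FAS, AEN and FDXR. Leaving out 1 library gave 8 to 16 rising and 0 falling genes, with 1522 to 3359 genes called in all beside 3088. The 1 falling gene after quantile normalization was TRIAP1. Over all genes the share of calls that were higher was 59.9%, and 49.98% after quantile normalization. With Tamoxifen, leaving out 1 library gave 37 to 977 genes called beside 230, 0 to 4 rising and 0 to 2 falling. There, 1 gene was called with no filter, 385 with trimmed mean scaling, 646 with robust variances and 1053 in the joint fit. Of the 31 genes, 0 rose with no filter and 3 with robust variances or in the joint fit. Of all genes tested 0.0061%, 2.35% and 4.36% then rose, beside 0.692% as reported. Falling genes of the 31 numbered 0 with no filter or no trend, 2 with trimmed mean scaling and 3 with robust variances or in the joint fit. Over all genes, 0 of 16382 fell with no filter and 105 of 11123 with no trend. Trimmed mean scaling gave 293 of 11123, robust variances 385 of 11123 and the joint fit 574 of 10994, beside 153 of 11123 as reported. For the difference, leaving out 1 library gave 924 to 2326 calls beside 2190, with 4 to 10 genes higher and 0 or 1 lower. With a filter of 5 RPKM, which kept 25 of the 31 genes, 4 were higher and 1 lower. Of all 8351 genes tested there, 846 were higher and 713 lower. The genes lower were 2 after quantile normalization (TRIAP1 and PLK2) and 1 with trimmed mean scaling or robust variances. Of all 10994 genes tested, 1083, 951 and 1105 were then lower, in that order. A fit left with 1 library in a group assumes that it varies like the others. The cause of these shifts was not tested.

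Equal replicate numbers did not deviate together: their correlations were 0.0591, 0.059 and -0.0675 in the chemical experiment and 0.04 in the genetic one. With a replicate block, 1610 genes were called with DZNep (10 of the 31 rising, where 9.12% of all genes rose). With Tamoxifen 878 were called (3 of the 31 rising and 3 falling, where 429 and 449 of all 11123 genes did). For the difference 1226 were called (4 of the 31 higher, where 6.22% of all genes were). DREAM genes called with DZNep numbered 6 beside 14, where 14.4% of all genes were called beside 27.7%.

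Signs turned only for values near 0 that were not called. With quantile normalization these were PLK3 with DZNep (-0.01), EDA2R (-0.03), BBC3 (-0.01), ZMAT3 (-0.02) and POLK (-0.01) with Tamoxifen, and DDB2 for the difference (0.01). With trimmed mean scaling they were EDA2R (-0.02), BAX (-0.02) and BBC3 (-0.01) with Tamoxifen, and DDB2 and BTG2 for the difference (0.01 each). Leaving out 1 library also turned signs. With Tamoxifen the changes then ran from -0.07 to 0.01 for CDKN1A, -0.02 to 0.07 for BBC3, -0.01 to 0.18 for SESN1, -0.02 to 0.09 for ZMAT3, -0.08 to 0.07 for TNFRSF10B and -0.05 to 0.13 for POLK, with EDA2R, BAX and FDXR between -0.04 and 0.04. For the difference they ran from -0.05 to 0.06 for MDM2, -0.05 to 0.07 for DDB2, -0.04 to 0.02 for BTG2, -0.23 to 0.15 for RPS27L, -0.12 to 0.05 for APAF1 and -0.01 to 0.17 for POLK.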
